A study of Mus musculus with 18 samples.

Results

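The comparison set 2 mouse brain libraries with PLAAT3-PEX11 overexpression, named PLA1, against 2 wild-type brain libraries, named Ctrl1. These 4 libraries, of 18 in the series, were taken by the names of their columns in the deposited expression table. Of 32941 genes in that table, the 11623 with a mean of at least 1 RPKM over the 4 libraries were analysed, 21318 lay below that mean, and 11018 of the latter were at 0 in all 4. RPKM is the number of reads of a gene scaled to its exon length and to the total of the library. The genes nearest the threshold were Dok6 (mean 1.0007 RPKM) and Angptl4 (1.0008 RPKM) just inside, and Gm24207 (0.9996 RPKM) and Tbcel (0.9995 RPKM) just outside. The series concerns ether lipids made by peroxisomes and the formation of cortical neurons. It also holds 1 wild-type brain library at each of 6 embryonic stages, another overexpression set, named for neurons, and a set with Pex7sh, not used here. The genotype of Ctrl1 is given as wild type with no further agent. The age of the animals, the promoter, the way the construct was delivered, the cells that carried it and the PEX11 family member in it are not given in the sources used here. Nothing says that the 2 libraries of a group came from separate animals, so the p-values below rest on a spread between libraries that can be technical in origin.

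PLAAT3 is a phospholipase and acyltransferase of the PLAAT family that acts on membrane phospholipids. PEX11 proteins sit in the peroxisomal membrane, where they elongate peroxisomes before division. Peroxisomes carry out the first steps of ether lipid synthesis. In the developing cortex, radial glia divide along the ventricle and give rise to intermediate progenitors and projection neurons, those of the deep layers before those of the upper layers. Regulators that pattern this process include Notch, Hedgehog and FGF signals. Cells of many kinds also hold inducible programs that bear on the results below. In the interferon program, RNA sensors or interferon receptors lead through STAT and IRF factors to antiviral effectors. In the integrated stress response, kinases of the translation factor eIF2 raise the transcription factor ATF4, which induces genes of amino acid supply.

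The read totals recovered from the RPKM values were 20450930 and 21041184 in Ctrl1 and 16147911 and 17935784 in PLA1. Log2 differences over the tested genes had an SD of 0.25 between the Ctrl1 libraries, 0.30 between the PLA1 libraries and 0.47 between the group means. The brain label was checked against markers. Telencephalic genes were present, with Emx1 at 26.2 to 31.4 RPKM and Lhx2 at 38.8 to 57.5 RPKM. Hindbrain and midbrain genes were at or near 0, with Hoxa3 at most 0.0237 RPKM and En1 at 0 in all 4 libraries. Markers of several other cells of brain tissue were nearly absent: Cldn5 of endothelium was at most 0.0671 RPKM, Ttr of the choroid plexus was at 0, and Gfap of astrocytes was at most 0.0563 RPKM. Fewer cells of a type and less RNA per cell cannot be told apart in these values, here and for every cell type below. Markers of microglia were present and differed between the groups. The 26 listed microglia genes summed to 912 and 836 RPKM in Ctrl1 and to 383 and 380 RPKM in PLA1. Sex-linked genes differed as well. Xist, the X-inactivation RNA, went from 5.26 and 4.94 RPKM in Ctrl1 to 8.52 and 9.46 RPKM in PLA1, and the Y-linked Ddx3y from 9.07 and 9.54 RPKM to 3.38 and 4.33 RPKM. Both genes were present in all 4 libraries, so the groups differed in the levels of these genes and not in their presence. A difference in sex, or in the balance of sexes, and the construct cannot be told apart for any gene below.

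Plaat3, a gene named in the construct, rose in PLA1. Plaat3 (ENSMUSG00000060675, mm10 chr19, 7557459 to 7588545, plus strand) stood at 0.413 and 0.431 RPKM in Ctrl1 and at 31.4 and 29.1 RPKM in PLA1. The values rested on 54 and 58 reads in Ctrl1 and 3239 and 3335 reads in PLA1, with 95% Poisson intervals, of counting error alone, from 0.310 to 0.539 and from 0.327 to 0.557 RPKM against 30.3 to 32.5 and 28.1 to 30.1 RPKM. Its log2 change, PLA1 minus Ctrl1 on the log2(RPKM + 1) scale, was 4.46 (SE 0.13), and its Benjamini-Hochberg adjusted p in limma was 9.53e-06. Pex11a was at 3.38 and 3.12 RPKM in Ctrl1 against 2.49 and 3.28 RPKM in PLA1, with overlapping groups (log2 change -0.14, SE 0.17, adjusted p = 0.558). Pex11g lay below 1 RPKM in every library (0.446, 0.210, 0.456 and 0.345). Whether a read came from the construct or from the endogenous gene cannot be told apart in these values.

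Across all genes, 1900 rose and 1538 fell at an adjusted p under 0.05, which is 16.3% and 13.2% of those tested. A change of at least 2-fold was reached by 251 of the risen genes (2.16% of those tested) and 196 of the fallen genes (1.69%). The groups did not overlap for 69.3% of the tested genes, 39.6% with PLA1 higher and 29.7% with PLA1 lower. The median log2 change over all tested genes was 0.06. These counts depended on single libraries: without Ctrl1 replicate 1 the calls numbered 1575, and without PLA1 replicate 2 they numbered 2048, against 3438 with all 4. Each fit without 1 library left a group with 1 library. Lower power and a trait of the library left out cannot be told apart in such counts and lost calls, here and below. Rises made up 55.3% of the calls as deposited, and 40.2% after upper-quartile scaling of the libraries (1326 rose, 1972 fell).

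**Figure D1:**
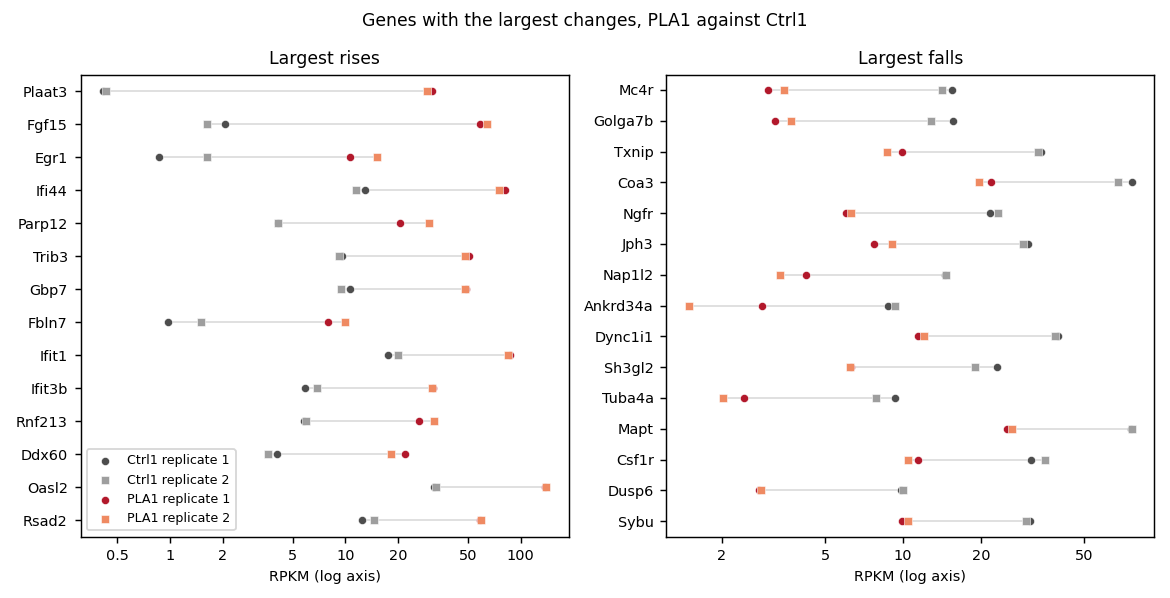
RPKM (log axis) in each library of genes among the 15 largest rises and the 15 largest falls, taken from called genes averaging 5 RPKM or more, with non-overlapping groups and no predicted or clone names; grey points are Ctrl1 and red or orange points PLA1, with circles for replicate 1 and squares for replicate 2. Plaat3 (0.413 to 31.4 RPKM) and Fgf15 (1.63 to 63.9) head the rises, and by the rule that chose the genes no grey point lies among the red and orange ones.

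Among the 15 largest rises, 8 belonged to the list of interferon-stimulated effectors or to that of nucleic acid sensors: Ifi44, Parp12, Gbp7, Ifit1, Ifit3b, Ddx60, Oasl2 and Rsad2. The others included Plaat3, the growth factor gene Fgf15, the immediate early gene Egr1, the pseudokinase gene Trib3, the matrix gene Fbln7 and Rnf213, which encodes a large ubiquitin ligase. Fbln7 went from 0.969 and 1.502 RPKM to 7.94 and 9.98 RPKM, and Rnf213 from 5.79 and 5.97 RPKM to 26.3 and 31.8 RPKM. The largest falls were of another kind. Mc4r, a melanocortin receptor gene, went from 15.4 and 14.1 RPKM to 3.005 and 3.46 RPKM (log2 change -1.90), and Jph3, a junctophilin gene, from 30.3 and 29.0 RPKM to 7.74 and 9.06 RPKM (-1.71). Other falls among the 15 included the neuronal tubulin gene Tuba4a, from 9.30 and 7.86 RPKM to 2.43 and 2.02 RPKM, Sh3gl2, which encodes an endophilin of synaptic vesicle recycling, from 22.97 and 18.99 RPKM to 6.30 and 6.25 RPKM, and Sybu, which encodes a linker of kinesin to axonal cargo, from 30.7 and 29.7 RPKM to 9.88 and 10.4 RPKM. Golga7b (-1.77), the X-linked Nap1l2 (-1.71) and Ankrd34a (-1.69) completed the falls that belong to no list described below.

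**Figure D2:**
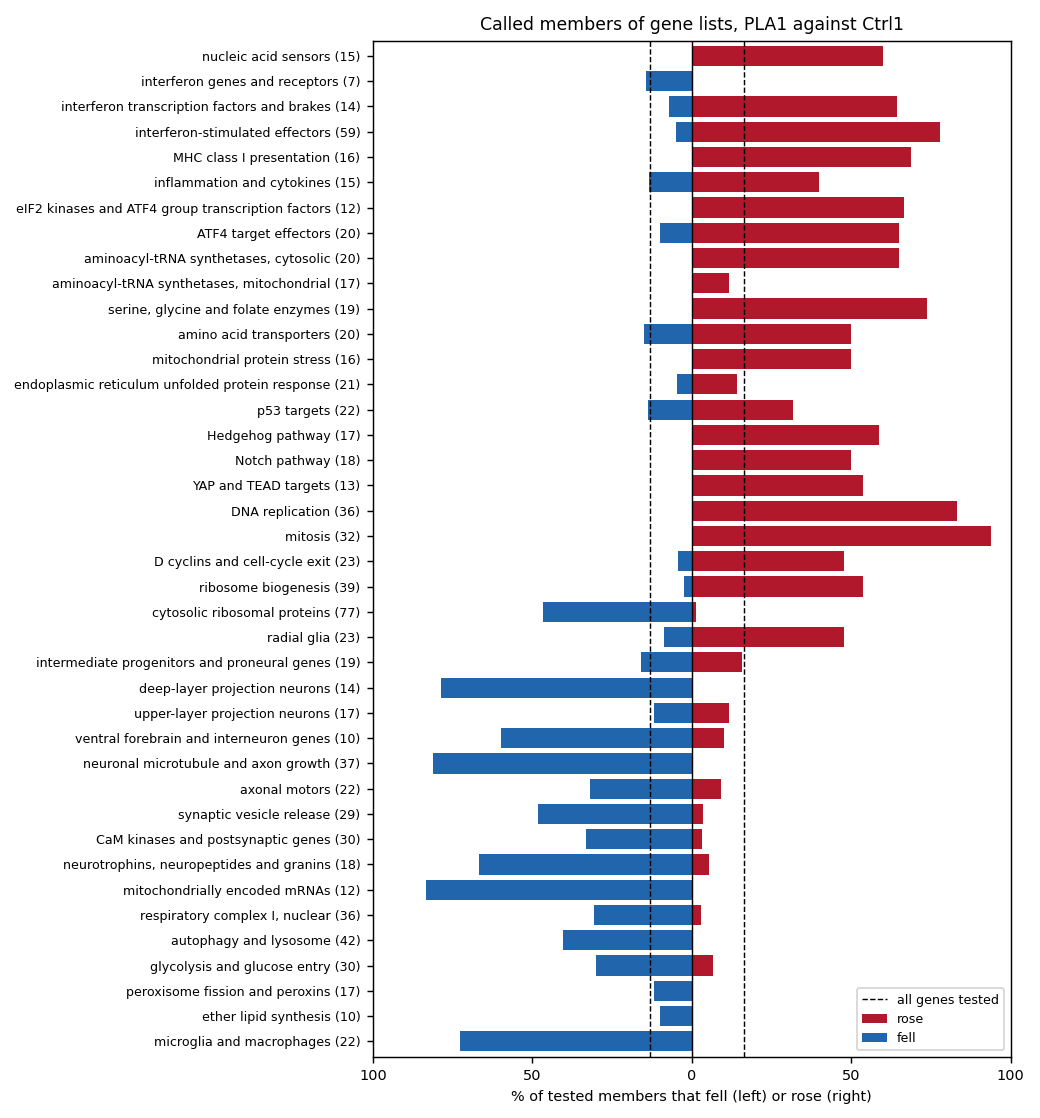
Share of the tested members of each gene list that rose (red, right) or fell (blue, left) in PLA1, with the number of tested members in parentheses and the shares over all genes tested as dashed lines (16.3% rose, 13.2% fell). Interferon effectors, stress response and cell division lists extend to the right, and neuronal, mitochondrially encoded and microglia lists to the left.

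The interferon program was higher in PLA1 at the level of sensors, transcription factors and effectors, and the transcripts of interferons themselves were near 0. Promoter sequence of 3 effectors is shown because it holds the letters of the interferon-stimulated response element, the site through which interferons act on their target genes. The stretches lie in the 250 bases before the RefSeq start (GRCm38.p6, the build called mm10), run 5′ to 3′ on the strand of the gene, and have in capitals the letters GAAA, any 2 bases and GAAA again, or their reverse complement, with overlapping matches joined.
Ifit1 (chr19:34640755-34640843, plus strand): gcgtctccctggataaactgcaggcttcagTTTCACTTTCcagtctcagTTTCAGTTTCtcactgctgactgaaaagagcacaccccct
Isg15 (chr4:156200845-156200926, minus strand): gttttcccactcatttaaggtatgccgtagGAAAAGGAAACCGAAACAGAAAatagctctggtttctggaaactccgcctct
Rsad2 (chr12:26456533-26456602, minus strand): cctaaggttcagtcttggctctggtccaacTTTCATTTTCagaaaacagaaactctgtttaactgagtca
Of the 44 tested effectors with a promoter in the table, 23 held these letters on either strand (52.3%), against 3.25% of the 8949 tested genes with a promoter and 2.98% of all 32851 promoters of the same length. Among the 34 effectors that rose the share was 55.9%, and Oasl2 and Ifi44 were among those without a match. A match is a description of the letters and not evidence of binding. The list is one of interferon-stimulated genes, so its share describes the list and not a change in PLA1. Of tested genes with a promoter, 1 of 11 sensors and 3 of 14 genes of MHC class I presentation held a match. The share was 5.37% over all genes that rose and 4.22% over all that fell.

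Sensors of RNA rose. Ifih1, which encodes MDA5, went from 8.04 and 7.81 RPKM to 25.4 and 27.4 RPKM (log2 change 1.62, SE 0.10, adjusted p = 0.000151), and Ddx58, which encodes RIG-I, from 12.6 and 11.7 RPKM to 36.1 and 33.9 RPKM (1.45). Of 15 tested sensors and their adaptors 9 rose and 0 fell (median log2 change 0.47, against 0.06 over all genes), among them Ddx60 (2.12), the RNA-activated kinase gene Eif2ak2 (1.30), Tlr3 (1.17), Trim25 (0.99) and Adar (0.82). Mavs, the adaptor of these 2 RNA sensors, was not called (log2 change 0.30, adjusted p = 0.102). The DNA sensor genes Cgas (at most 1.18 RPKM) and Sting1 (at most 0.364 RPKM) had means below 1 RPKM. Interferon genes and receptors showed no such rise: Ifnb1 had 1 read in Ctrl1 and 0 in PLA1, Ifnar1 was at 10.8 and 11.6 RPKM against 10.3 and 12.7 RPKM, with overlapping groups (log2 change 0.03, adjusted p = 0.889), and Ifnar2 was at 13.7 and 10.7 RPKM against 9.21 and 8.27 RPKM (-0.43, adjusted p = 0.057). Ifngr2, a chain of the interferon gamma receptor, fell from 53.8 and 58.9 RPKM to 30.9 and 29.2 RPKM (-0.88, adjusted p = 0.000769).

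Of 14 tested transcription factors and brakes of the program, 9 rose and 1 fell. Irf9, which carries interferon signals to DNA, went from 39.1 and 41.6 RPKM to 84.2 and 81.9 RPKM (log2 change 1.02), and Irf7 from 8.61 and 8.07 RPKM to 18.9 and 19.4 RPKM (1.11). Stat2 rose less (0.64, adjusted p = 0.0067). The brake Usp18, an enzyme that removes ISG15 and blocks the receptor, went from 33.3 and 33.1 RPKM to 106 and 112 RPKM (1.68), and Socs1, another brake, rose by 1.46. Nlrc5, the activator of MHC class I genes, rose from 1.89 and 2.26 RPKM to 7.96 and 9.39 RPKM. Irf3, the factor below the sensors, was not called (0.14), and Irf8, a factor of microglia, fell from 5.08 and 5.30 RPKM to 2.47 and 2.22 RPKM (-0.89).

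Effectors rose for 46 of 59 tested members and fell for 3, with a median log2 change of 1.27. Oasl2, of the oligoadenylate synthetase family, went from 31.9 and 32.7 RPKM to 137 and 140 RPKM (log2 change 2.07, SE 0.07, adjusted p = 2.47e-05). Ifit1, which binds foreign RNA ends, went from 17.4 and 19.9 RPKM to 86.7 and 84.3 RPKM (2.14), and Rsad2, which encodes viperin, from 12.4 and 14.5 RPKM to 58.9 and 59.2 RPKM (2.06). Bst2, which encodes the tether of budding viruses, reached the highest level of the effectors described, 378 and 368 RPKM from 144 and 128 RPKM (1.45). Isg15, a ubiquitin-like modifier, rose by 1.46, the GTPase gene Mx1 by 1.64, and the guanylate-binding protein genes Gbp3 and Gbp7 by 1.96 and 2.16. Ifi44, from 13.0 and 11.5 RPKM to 81.0 and 75.3 RPKM, had the largest change of the list (2.58). The 3 falls were Oas3, from 4.96 and 4.66 RPKM to 2.10 and 2.31 RPKM (-0.86), Ccl5 (-0.59) and Ifitm2 (-0.42). Ccl5 lost its call without Ctrl1 replicate 1 (adjusted p = 0.131), PLA1 replicate 1 (0.0568) or PLA1 replicate 2 (0.0525) and Ifitm2 without Ctrl1 replicate 1 (0.0544), Ctrl1 replicate 2 (0.0657) or PLA1 replicate 1 (0.0509), while the rises numbered 40 to 43 when any 1 library was left out.

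Antigen presentation by MHC class I moved with the program for 11 of 16 tested genes, with 0 falls. Tapbp, the chaperone that loads peptide, went from 37.9 and 40.6 RPKM to 108 and 121 RPKM (log2 change 1.52), and the peptide trimming gene Erap1 rose by 1.25, the immunoproteasome gene Psmb10 by 0.97 and the peptide transporter genes Tap1 and Tap2 by 0.89 and 0.91. The heavy chain gene H2-D1 went from 130 and 126 RPKM to 193 and 216 RPKM (0.66). H2-K1 went from 91.1 and 84.6 RPKM to 114 and 115 RPKM (0.38), a call that was lost without Ctrl1 replicate 2 (adjusted p = 0.0531). B2m, the common light chain, was at 333 and 316 RPKM against 325 and 291 RPKM, with overlapping groups (-0.08, adjusted p = 0.483). The heavy chain genes, like the Ifit and Gbp families, hold near-identical copies, so the split of reads among members is uncertain. Microglia, which express many genes of this program, had lower marker levels in PLA1 (16 of 22 tested markers fell and 0 rose), and lymphocyte markers Cd3e and Nkg7 were at 0 in all 4 libraries. The part of these cells in the interferon changes was not tested.

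**Figure D3:**
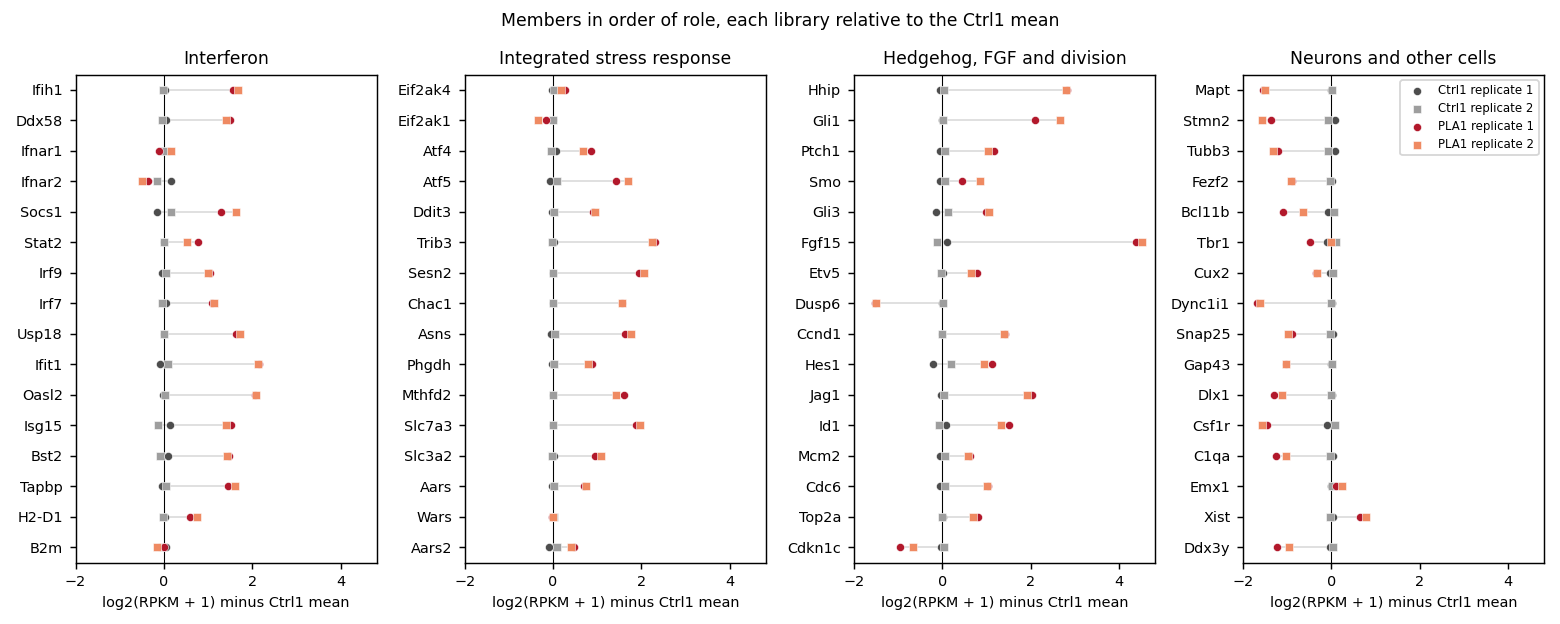
Difference of log2(RPKM + 1) from the Ctrl1 mean in each library for members of 4 themes, listed in order of role; grey points are Ctrl1 and red or orange points PLA1, with circles for replicate 1 and squares for replicate 2. Ifnar1 (0.03), B2m (-0.08) and Eif2ak4 (0.22) stay near 0, while Ifit1 (2.14), Trib3 (2.28) and Fgf15 (4.45) lie far to the right and Mapt (-1.53) to the left.

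Many genes of the integrated stress response rose in PLA1, from the transcription factors to amino acid enzymes and transporters. The eIF2 kinase genes Eif2ak4 (log2 change 0.22), Eif2ak3 (0.02) and Eif2ak1 (-0.24) were not called, and the fourth, Eif2ak2, is the interferon-induced kinase gene given above. Atf4 went from 125 and 115 RPKM to 220 and 192 RPKM (0.77, adjusted p = 0.00133). Ddit3, which encodes CHOP, went from 11.7 and 12.2 RPKM to 23.1 and 24.1 RPKM (0.93), and Atf5, a factor of the mitochondrial stress response, from 2.77 and 3.22 RPKM to 9.73 and 12.0 RPKM (1.57). Together, 8 of 12 tested kinases and factors rose and 0 fell. Atf3 went from 5.43 and 3.64 RPKM to 11.0 and 7.40 RPKM (0.88), a call lost without Ctrl1 replicate 2 (adjusted p = 0.0598) and without PLA1 replicate 1 (0.091).

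Among the effectors of ATF4, 13 of 20 tested genes rose and 2 fell (median log2 change 0.68). Trib3, a feedback inhibitor, went from 9.57 and 9.19 RPKM to 50.4 and 48.4 RPKM (2.28, SE 0.09, adjusted p = 3.31e-05). Sesn2, an inhibitor of mTORC1, went from 20.8 and 20.5 RPKM to 82.7 and 88.6 RPKM (2.00), and Chac1, which degrades glutathione, from 13.4 and 13.6 RPKM to 41.4 and 42.1 RPKM (1.56). The transsulfuration gene Cth rose by 1.45 and the transaminase gene Gpt2 by 1.26. Ddit4 was not called (0.27, adjusted p = 0.0649). The 2 falls were the stress-inducible Ndrg1, from 10.7 and 10.6 RPKM to 3.74 and 4.01 RPKM (-1.26), and the autophagy receptor gene Sqstm1 (-0.46).

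Amino acid enzymes rose alongside. Asns, asparagine synthetase, went from 86.5 and 91.7 RPKM to 279 and 307 RPKM (log2 change 1.71, adjusted p = 5.43e-05). Of 19 tested enzymes of serine, glycine and folate metabolism (a list that also holds Asns) 14 rose and 0 fell, a count of 8 without Ctrl1 replicate 1. Phgdh, the entry step of serine synthesis, went from 261 and 270 RPKM to 488 and 458 RPKM (0.83), Psat1, the next step, from 100 and 95.5 RPKM to 224 and 197 RPKM (1.09), and the mitochondrial folate genes Mthfd2, Mthfd1l and Shmt2 rose by 1.52, 1.23 and 0.92. Psph, the last step of serine synthesis, changed least of the 3 (0.40), a call lost without Ctrl1 replicate 1 (adjusted p = 0.112), Ctrl1 replicate 2 (0.145) or PLA1 replicate 1 (0.0747).

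Cytosolic aminoacyl-tRNA synthetases, which charge tRNAs for translation, rose for 13 of 20 tested genes and fell for 0. Aars went from 60.0 and 62.3 RPKM to 100 and 103 RPKM (log2 change 0.72), Iars from 33.0 and 34.9 RPKM to 71.0 and 63.1 RPKM (0.96), and Nars from 56.5 and 64.1 RPKM to 102 and 102 RPKM (0.75). Wars was flat, at 49.2 and 50.05 RPKM against 48.5 and 49.8 RPKM (-0.01, adjusted p = 0.903). The mitochondrial synthetases, a separate set of genes, rose for 2 of 17, near the background. The call of Aars2 (0.44) was absent when any 1 library was left out (adjusted p up to 0.245), and that of Tars2 (0.38) without Ctrl1 replicate 1 (0.125), Ctrl1 replicate 2 (0.139) or PLA1 replicate 1 (0.0848). Promoter sequence is shown for Asns and Chac1, because it holds the letters TGATGNAA of the C/EBP-ATF response element, the site read by ATF4. It is given as for the effectors above, with the match on either strand in capitals.
Asns (chr6:7693210-7693262, minus strand): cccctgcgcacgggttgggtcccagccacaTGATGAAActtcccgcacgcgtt
Chac1 (chr2:119351019-119351086, plus strand): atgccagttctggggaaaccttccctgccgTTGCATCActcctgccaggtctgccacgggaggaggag
These letters stood in 4 of 16 tested ATF4 effectors with a promoter in the table, in 3 of 13 cytosolic synthetases, in 1 of 16 enzymes of serine, glycine and folate metabolism and in 0 of 14 amino acid transporters, against 2.27% of the tested genes and 3.45% of all promoters. Sesn2, Psat1 and Mthfd2, which also rose, held no match in these windows. The effector list is one of ATF4 targets, so its share describes the list and not a change in PLA1. Over all genes that rose the share was 2.72%, and over all that fell 2.24%.

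Amino acid transporter genes rose for 10 of 20 tested members and fell for 3. The cationic transporter gene Slc7a3 went from 10.1 and 10.01 RPKM to 39.3 and 42.5 RPKM (log2 change 1.92) and its relative Slc7a1 from 1.73 and 2.18 RPKM to 6.61 and 8.48 RPKM (1.53). Slc7a5 and Slc3a2, which together form the large neutral amino acid exchanger, went from 6.13 and 7.72 RPKM to 19.7 and 37.4 RPKM (1.84) and from 45.1 and 43.6 RPKM to 86.4 and 95.4 RPKM (1.02). The PLA1 replicates of Slc7a5 lay far apart. The neutral transporters Slc1a5 and Slc1a4 rose by 1.37 and 1.10. The 3 falls, Slc1a1 (-0.75), Slc7a8 (-0.64) and Slc43a2 (-0.50), were all absent without PLA1 replicate 2 (adjusted p = 0.0635, 0.0854 and 0.131) or Ctrl1 replicate 2, and 1 was left without Ctrl1 replicate 1.

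Other stress programs moved less. Of 16 tested genes of mitochondrial protein stress 8 rose and 0 fell, and 4 rose without Ctrl1 replicate 1 or without PLA1 replicate 2. Hspa9, the mitochondrial HSP70, went from 105 and 104 RPKM to 214 and 199 RPKM (log2 change 0.98), and Hspd1, the mitochondrial HSP60, from 354 and 360 RPKM to 494 and 433 RPKM (0.37). Of 21 genes of the unfolded protein response of the endoplasmic reticulum 3 rose and 1 fell, close to the background, with the chaperone gene Hspa5 at 89.5 and 89.8 RPKM against 123 and 128 RPKM (0.48), Herpud1 at 0.71 and Xbp1 not called (-0.15), and the fall was absent without Ctrl1 replicate 1 or PLA1 replicate 2. The cytoplasmic heat shock genes Hspa1a and Hspa1b had means below 1 RPKM, and Hsp90aa1 (0.14), Hspa8 (-0.19) and Dnajb1 (0.01) were not called. Of 22 p53 targets 7 rose (31.8%) and 3 fell (13.6%), against 16.3% and 13.2% of all tested genes. The cell-cycle inhibitor gene Cdkn1a went from 2.28 and 2.37 RPKM to 5.72 and 7.80 RPKM (1.21) and Gadd45a rose by 1.32. Plk2 fell from 66.3 and 63.4 RPKM to 29.9 and 27.3 RPKM (-1.16). Trp53 itself (0.11) and Mdm2 (0.22) were not called. The list of ferroptosis defence and NRF2 targets had 20.8% rises and 25% falls, beside the same shares over all tested genes. Of 24 genes of ferroptosis defence and NRF2 targets, 5 rose and 6 fell, with the glutathione reductase gene Gsr at 1.12, Hmox1 at 0.51, the peroxiredoxin gene Prdx2 at -0.62 and the ferritin genes Ftl1 and Fth1 at -0.50 and -0.40, and the rises numbered 3 without Ctrl1 replicate 1 or replicate 2.

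Targets of Hedgehog signalling rose. Shh, a ligand of the pathway, had 1 read in Ctrl1 and 0 in PLA1. Hhip, an inhibitor induced by the pathway, had 1 and 13 reads in Ctrl1 and 928 and 1021 reads in PLA1, or 0.00539 and 0.0681 RPKM against 6.33 and 6.27 RPKM (log2 change 2.82, adjusted p = 0.000131, a size that depends on the pseudocount). Gli1, the transcription factor that serves as a readout of the pathway, had 15 and 17 reads in Ctrl1 and 318 and 563 reads in PLA1, or 0.147 and 0.162 RPKM against 3.94 and 6.28 RPKM (2.38). The receptor gene Ptch1, itself induced by the pathway, went from 0.614 and 0.740 RPKM to 2.79 and 2.42 RPKM (1.10). The factors Gli3 and Gli2 rose by 1.03 and 0.72. Of 17 tested members 10 rose (58.8%, against 16.3% of all tested genes) and 0 fell, with a median log2 change of 0.62. Hhip, Gli1 and Ptch1 lay below 1 RPKM in Ctrl1, so they passed the filter only through their PLA1 values. Members of this kind could enter the count only if they were higher in PLA1. With no filter on low values, in a fit that adjusts over more genes, 5 of 23 rose and 0 fell. Smo, the transducer, rose by 0.65, a call lost without Ctrl1 replicate 1 (adjusted p = 0.0908) or PLA1 replicate 2 (0.0817). The letters GACCACCCA, a GLI site, stood in 0 of the 14 tested members with a promoter in the table and in 0.246% of tested genes, which says only that these letters are not in that window.

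Fgf15 had the second-largest change among the genes named by size. It went from 2.06 and 1.63 RPKM to 58.5 and 63.9 RPKM, with 129 and 105 reads in Ctrl1 and 2889 and 3503 reads in PLA1 (log2 change 4.45, SE 0.12, adjusted p = 9.53e-06). Readouts of FGF and ERK signalling did not move one way. Dusp6, a phosphatase induced by ERK, fell from 9.84 and 9.98 RPKM to 2.79 and 2.83 RPKM (-1.52, adjusted p = 0.000409), and Etv5, a factor downstream of FGF receptors, rose from 20.5 and 19.9 RPKM to 35.5 and 32.3 RPKM (0.72). Ccnd1, the gene of cyclin D1, rose from 50.7 and 51.0 RPKM to 137 and 135 RPKM (1.40). Over the 13 tested members of the list 5 rose and 2 fell, and the rises numbered 3 and the falls 1 without Ctrl1 replicate 2 or without PLA1 replicate 2, with 1 fall also without Ctrl1 replicate 1. Immediate early genes were also uneven: Egr1 went from 0.861 and 1.63 RPKM to 10.6 and 15.1 RPKM (2.62), Fos from 11.1 and 10.9 RPKM to 19.3 and 19.4 RPKM (0.76) and Jun from 108 and 120 RPKM to 175 and 168 RPKM (0.58), Arc was not called (0.35), and 5 of 17 rose in all, with 1 fall, Dusp1 (-0.30, adjusted p = 0.0484), a call absent when any 1 library was left out (adjusted p from 0.0812 to 0.251).

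In the Notch pathway 9 of 18 tested genes rose and 0 fell, counts that were 4 without Ctrl1 replicate 1 and 3 without PLA1 replicate 2. The ligand gene Jag1 went from 1.59 and 1.71 RPKM to 9.84 and 9.08 RPKM (log2 change 1.98), whereas Dll1, the ligand of nascent neurons, was at 18.9 and 21.9 RPKM against 23.2 and 20.5 RPKM (0.09, adjusted p = 0.554). The receptor gene Notch1 rose by 0.96 and the target gene Hes1 by 1.04, from 7.27 and 9.99 RPKM to 19.8 and 17.4 RPKM. Among BMP genes and Id factors 5 of 12 rose and 1 fell. Id1 went from 9.53 and 8.40 RPKM to 27.4 and 23.8 RPKM (1.42) and Id2 the other way, from 148 and 145 RPKM to 95.1 and 99.3 RPKM (-0.59), and the number of rises was 1 without Ctrl1 replicate 1, 3 without Ctrl1 replicate 2 and 2 without PLA1 replicate 2. The YAP and TEAD list rose for 7 of 13 and fell for 0, with Yap1 at 0.89, the target gene Ccn1 at 0.88, from 35.6 and 38.7 RPKM to 69.5 and 69.3 RPKM, and Tgfb2 at 1.27. Wnt genes showed no such shift: 1 of 17 rose and 2 fell, Ctnnb1 was not called (0.25), Axin2 lay below 1 RPKM and Wnt7b fell from 24.5 and 24.8 RPKM to 11.3 and 12.3 RPKM; the number of rises was 5 without PLA1 replicate 1, 2 without Ctrl1 replicate 2 and 0 without either of the other libraries, and 1 gene fell without either Ctrl1 library.

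Cell division genes rose together. Of 32 tested mitosis genes 30 rose and 0 fell (median log2 change 0.67), and of 36 tested DNA replication genes 30 rose and 0 fell (0.62). Top2a, a topoisomerase gene of dividing cells, went from 35.7 and 35.3 RPKM to 63.1 and 58.5 RPKM (0.76), Plk1 from 36.3 and 40.5 RPKM to 71.3 and 67.7 RPKM (0.84) and Aurkb from 49.1 and 50.5 RPKM to 87.4 and 93.0 RPKM (0.84). Cdc6, a licensing factor gene, rose from 14.7 and 16.0 RPKM to 32.3 and 31.9 RPKM (1.02) and the helicase gene Mcm2 from 59.8 and 64.4 RPKM to 96.8 and 93.2 RPKM (0.61). The 2 mitosis genes without a call, Ccnb2 (0.36) and Cenpa (0.35), were named after their values were seen. Cdk6 and Cdk2, kinases of the G1 phase, rose by 1.11 and 0.83 and Ccnd2 by 0.54. Of the inhibitors that accompany cell-cycle exit, Cdkn1b was not called (-0.03) and Cdkn1c fell by 0.80, a call lost without Ctrl1 replicate 1 (adjusted p = 0.0774) or replicate 2 (0.0888).

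The machinery that builds ribosomes and the ribosomal proteins went in opposite directions. Of 39 tested ribosome biogenesis genes 21 rose and 1 fell, with Ncl at 61.1 and 63.2 RPKM against 91.9 and 92.8 RPKM (log2 change 0.56) and Nop56 at 27.0 and 25.9 RPKM against 43.3 and 47.3 RPKM (0.75). Without Ctrl1 replicate 1 the rises numbered 10, and the fall was absent without that library or PLA1 replicate 2. Of 77 cytosolic ribosomal protein genes 36 fell and 1 rose, with Rpl19 from 16.6 and 12.5 RPKM to 7.998 and 6.98 RPKM (-0.86) and Rps6 not called (-0.18). That count of falls was 6 without Ctrl1 replicate 1 and 2 without PLA1 replicate 2. Short transcripts were lower in PLA1 in general: the median log2 change was -0.07 over the 2899 genes with at most 2703 bases of exon and 0.17 over the 2897 genes with at least 6856 bases. Most ribosomal protein genes are short, and the part of length in their falls was not tested beyond the fit with the length trend removed, in which 32 fell and 4 rose.

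Of 23 tested radial glia genes 11 rose and 2 fell, counts of 7 and 1 without Ctrl1 replicate 1 and of 0 falls without PLA1 replicate 2. Slc1a3, the glutamate transporter of radial glia, went from 18.6 and 18.9 RPKM to 40.5 and 41.0 RPKM (log2 change 1.08, SE 0.08, adjusted p = 0.000318), and Tnc, a matrix gene of outer radial glia, from 2.62 and 3.14 RPKM to 9.53 and 8.85 RPKM (1.40). The transcription factor gene Sox9 rose by 0.60, and Pax6, from 8.02 and 9.10 RPKM to 13.2 and 13.96 RPKM, by 0.61, a call lost without Ctrl1 replicate 1 (adjusted p = 0.0612). Not every marker of these cells rose. Sox2 was not called (0.40, adjusted p = 0.163) and Vim overlapped between the groups (-0.06), while Dbi (-0.62) and Fabp7 (-0.32) made up the 2 falls.

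Genes of intermediate progenitors and neurogenic commitment did not move as a list. Rises (15.8%) and falls (15.8%) lay near the shares over all tested genes (16.3% and 13.2%). Eomes, the marker of intermediate progenitors, was at 8.19 and 7.995 RPKM against 7.20 and 11.3 RPKM (log2 change 0.14), and Neurog2 at 62.8 and 59.3 RPKM against 48.0 and 68.9 RPKM (-0.08), both with overlapping groups. The proneural gene Neurog1 rose from 14.6 and 16.0 RPKM to 23.2 and 26.8 RPKM (0.67), and Neurod6, a factor of postmitotic projection neurons, fell from 1299 and 1281 RPKM to 809 and 733 RPKM (-0.74, adjusted p = 0.000696). In all 3 of 19 rose and 3 fell, with 6 rises without PLA1 replicate 1. Of 17 tested genes that mark early or late progenitors 8 rose and 3 fell, with 5 rises without either Ctrl1 library or without PLA1 replicate 2. Hmga2, a chromatin gene of early progenitors, went from 0.563 and 0.442 RPKM to 1.73 and 2.13 RPKM (0.96, adjusted p = 0.0504 without Ctrl1 replicate 2), and Nfix, a factor of late progenitors and neurons, fell from 68.1 and 70.6 RPKM to 31.2 and 35.2 RPKM (-1.04).

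Deep-layer neuron genes fell for 11 of 14 tested members and rose for 0, with a median log2 change of -0.82. The median was -0.86 to -0.67 when any 1 library was left out. With no filter on low values 6 of 16 fell. Fezf2, the selector of subcortical projection neurons, went from 56.2 and 54.6 RPKM to 29.6 and 28.9 RPKM (-0.90, SE 0.08, adjusted p = 0.000517) and Bcl11b, which encodes CTIP2, from 39.0 and 42.9 RPKM to 18.7 and 25.9 RPKM (-0.87). Ldb2 fell by 1.20 and Sox5 by 0.77. Tbr1, the selector of layer 6, was not called, at 13.3 and 15.3 RPKM against 9.83 and 14.1 RPKM with overlapping groups (-0.26, adjusted p = 0.277), and neither were Foxp2 (-0.20) and Nr4a2 (-0.44). Upper-layer genes did not follow as a list: 2 of 17 rose and 2 fell (11.8% each, against 16.3% and 13.2% of all tested genes). Cux2, a factor of upper-layer neurons, was at 6.95 and 7.42 RPKM against 5.39 and 5.53 RPKM (-0.34, adjusted p = 0.0726), while Rorb fell from 8.36 and 7.20 RPKM to 3.16 and 2.56 RPKM (-1.19). The number of upper-layer rises was 4 without PLA1 replicate 1 and 0 without any other library. Among 6 genes of Cajal-Retzius cells, the early neurons at the surface of the cortex, Nhlh2 (-1.08) and Lhx5 (-0.95) fell, and Reln was not called (-0.18).

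Genes of the neuronal microtubule and axon growth fell for 30 of 37 tested members and rose for 0 (median log2 change -0.72). Mapt, which encodes tau, went from 75.4 and 76.4 RPKM to 25.2 and 26.2 RPKM (-1.53, SE 0.08, adjusted p = 7.7e-05). Tubb3, the neuronal beta tubulin, went from 375 and 337 RPKM to 153 and 142 RPKM (-1.27), Gap43, of growth cones, from 248 and 254 RPKM to 123 and 122 RPKM (-1.03) and Stmn2, a regulator of microtubule turnover, from 65.1 and 58.8 RPKM to 23.2 and 20.04 RPKM (-1.48). No library of PLA1 reached a Ctrl1 library for any of these 4. Such a gap, with PLA1 lower, was present for 29.7% of all tested genes. Motors that carry axonal cargo moved less as a list, with 7 falls and 2 rises of 22. Dync1i1, a neuronal dynein chain, fell from 39.5 and 38.6 RPKM to 11.4 and 12.0 RPKM (-1.66) and Kif5a from 16.0 and 17.7 RPKM to 9.97 and 8.14 RPKM (-0.83), whereas Kif5c (-0.19) and Kif1a (-0.27) were not called. The motor list had 4 falls without Ctrl1 replicate 1, and 0 rises without that library or PLA1 replicate 2.

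Synaptic genes fell in part. Of 29 genes of vesicle release 14 fell and 1, Syt13 (log2 change 1.10), rose. Snap25, a fusion protein of nerve terminals, went from 33.9 and 32.3 RPKM to 17.3 and 16.4 RPKM (-0.94), Cplx1, which clamps fusion, from 60.8 and 67.9 RPKM to 28.3 and 23.1 RPKM (-1.30) and Syp, of the vesicle membrane, from 14.7 and 14.6 RPKM to 9.06 and 8.78 RPKM (-0.66). Of 30 CaM kinase and postsynaptic genes 10 fell and 1 rose (6 falls without Ctrl1 replicate 1, and 0 rises without Ctrl1 replicate 1 or either PLA1 library). Within them Camk2b fell from 6.91 and 7.14 RPKM to 1.93 and 2.58 RPKM (-1.31), and Camk2a was not called, at 2.54 and 3.08 RPKM against 2.85 and 3.51 RPKM (0.13). Dlg4, which encodes PSD-95, was not called either (0.18).

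Receptor and channel genes were uneven. Over all tested genes 16.3% rose and 13.2% fell. The shares were 7.69% and 23.1% for glutamate receptors and 4.55% and 18.2% for voltage-gated channels, from few calls in each list. For GABA and glycine receptors with chloride transporters they were 8.33% and 50%. Of 13 glutamate receptor genes 3 fell and 1 rose, and the rise was absent without either Ctrl1 library. The AMPA receptor gene Gria1 fell from 18.5 and 20.7 RPKM to 9.94 and 9.29 RPKM (log2 change -0.96), the NMDA receptor gene Grin2b from 4.35 and 4.48 RPKM to 1.95 and 2.05 RPKM (-0.85) and Grik3 by 0.86. Gria2 was at 10.8 and 11.1 RPKM against 12.1 and 12.5 RPKM (0.15, adjusted p = 0.29), and Grin1 lay below 1 RPKM. GABA and glycine receptor genes fell for 6 of 12 and rose for 1, but the falls numbered 1 without Ctrl1 replicate 1, 3 without PLA1 replicate 2 and 4 without either other library, and the rise was absent without any library other than PLA1 replicate 1. Glra2, a glycine receptor gene of immature neurons, fell from 5.76 and 3.97 RPKM to 1.95 and 1.52 RPKM (-1.09). Among 22 tested voltage-gated channel genes 4 fell and 1 rose, with 1 fall without Ctrl1 replicate 1, 2 without PLA1 replicate 2 and 0 rises when any 1 library was left out, and the sodium channel gene Scn3b fell from 24.2 and 26.4 RPKM to 15.5 and 11.6 RPKM (-0.87).

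Guidance genes did not move as a list. Rises made up 9.76% and falls 17.1% of tested members, against 16.3% and 13.2% over all tested genes. Of 41 tested members 4 rose and 7 fell, and the falls numbered 2 without Ctrl1 replicate 2 or PLA1 replicate 2 and 4 without either other library, while the rises numbered 7 without PLA1 replicate 1. Lrrc4c, a netrin-G ligand gene, fell from 5.14 and 5.27 RPKM to 0.830 and 0.832 RPKM (log2 change -1.76) and Draxin from 13.97 and 12.6 RPKM to 6.31 and 6.17 RPKM (-0.98), while Ntng1, which encodes netrin-G1, rose from 0.647 and 0.652 RPKM to 2.05 and 2.72 RPKM (1.03). The netrin receptor gene Dcc (0.19), Robo2 (0.22) and Epha4 (0.04) were not called. Neurotrophin receptors, neuropeptides and granins fell for 12 of 18 tested members and rose for 1. Besides Mc4r, the low-affinity neurotrophin receptor gene Ngfr went from 21.6 and 23.2 RPKM to 6.002 and 6.29 RPKM (-1.71), the neuropeptide gene Cck from 8.66 and 6.81 RPKM to 1.61 and 1.54 RPKM (-1.75) and the granin gene Chga from 70.9 and 69.3 RPKM to 42.4 and 44.4 RPKM (-0.68). Ntrk2, which encodes TrkB, was not called (-0.30), and Bdnf lay below 1 RPKM.

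Genes of the ventral forebrain and interneurons, the cells that migrate into the cortex, fell for 6 of 10 tested members and rose for 1. Dlx1 went from 17.0 and 16.8 RPKM to 6.28 and 7.25 RPKM (log2 change -1.20), Lhx6, of medial ganglionic eminence derivatives, from 7.46 and 5.83 RPKM to 2.82 and 2.60 RPKM (-1.03) and Npy from 5.01 and 4.11 RPKM to 1.20 and 1.18 RPKM (-1.34). Dlx2 was not called (-0.40, adjusted p = 0.19). The rise was absent without PLA1 replicate 2. The ventral patterning genes Nkx2-1 and Gsx2 stayed below 1 RPKM, at most 0.0196 and 0.435 RPKM. Among the 12 tested genes of forebrain region identity, Tfap2c (0.75), Otx1 (0.72) and Pax6 rose, Lhx5 fell, and Emx1 (0.18), Emx2 (0.27) and Lhx2 (0.34) were not called, with 5 rises without PLA1 replicate 1 and 2 without Ctrl1 replicate 1.

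Mitochondrially encoded mRNAs fell for 10 of 12 tested members and rose for 0 (median log2 change -1.06), and for 10 to 12 when any 1 library was left out. COX1, a cytochrome oxidase subunit, went from 2741 and 2187 RPKM to 1186 and 944 RPKM (-1.21, SE 0.13, adjusted p = 0.00126), CYTB, of complex III, from 1788 and 1699 RPKM to 845 and 755 RPKM (-1.12) and ND4, of complex I, from 353 and 329 RPKM to 139 and 123 RPKM (-1.37). ND3 (-0.86) and ND4L (-0.45) were not called. Transcripts of the mitochondrial genome made up 2.82% and 2.54% of summed RPKM in Ctrl1 and 1.49% and 1.26% in PLA1. The part of that share in other changes was not tested. The nuclear genes that maintain and transcribe that genome did not fall: of 24 tested, 3 rose (1 without Ctrl1 replicate 1) and 0 fell, with Tfam at 29.99 and 30.4 RPKM against 34.1 and 29.5 RPKM (0.07) and Polrmt not called (-0.24). Pnpt1, which degrades mitochondrial RNA and is also interferon-inducible, rose from 11.3 and 11.0 RPKM to 22.1 and 20.1 RPKM (0.87).

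Nuclear respiratory genes were uneven. Over all tested genes 16.3% rose and 13.2% fell. The shares were 2.78% and 30.6% for complex I, and 10.5% and 15.8%, near that background, for cytochrome oxidase assembly. Of 36 complex I genes 11 fell and 1 rose, but the falls numbered 1 without Ctrl1 replicate 1, 3 without PLA1 replicate 2, 7 without PLA1 replicate 1 and 6 with the length trend removed. Ndufs1 (log2 change 0.09) and Ndufv1 (-0.07) were not called. Among 19 factors that assemble cytochrome oxidase 2 rose and 3 fell, with 0 rises without Ctrl1 replicate 1 and 1 without Ctrl1 replicate 2. Coa3 stood apart from the other assembly genes, falling from 76.4 and 67.2 RPKM to 21.9 and 19.6 RPKM (-1.74, SE 0.10, adjusted p = 0.000114), and Cox19 fell by 0.52, while Surf1 (-0.16) and Sco1 (-0.22) were not called. Of 76 mitochondrial ribosomal protein genes 3 rose and 7 fell, below the background in both directions, with Mrpl12, Mrps5 and Mrpl3 overlapping between the groups. The falls numbered 2 without Ctrl1 replicate 1 and 3 without PLA1 replicate 2, and the rises 0 without Ctrl1 replicate 1 and 1 without Ctrl1 replicate 2 or PLA1 replicate 1.

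Peroxisomal genes other than the construct moved little. In the fission and import list 0% rose and 11.8% fell, both below the 16.3% and 13.2% over all tested genes. Of 17 tested genes of peroxisome fission and import 0 rose and 2 fell, Pex5, the import receptor, from 20.7 and 19.1 RPKM to 14.6 and 13.1 RPKM (log2 change -0.49, adjusted p = 0.0133) and the fission adaptor gene Fis1, shared with mitochondria, from 116 and 104 RPKM to 84.1 and 71.1 RPKM (-0.50). Pex5 lost its call without Ctrl1 replicate 1 (adjusted p = 0.0992) or PLA1 replicate 2 (0.0543), and Fis1 without PLA1 replicate 2 (0.0549). Without PLA1 replicate 1 the list had 1 rise and 3 falls. Pex7, the receptor that imports the ether lipid enzyme AGPS, was at 1.27 and 1.18 RPKM against 1.43 and 1.15 RPKM (0.04, adjusted p = 0.884), and Pex19 was at 23.3 and 21.8 RPKM against 22.4 and 23.3 RPKM (0.02).

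Of 10 tested genes of the ether lipid list 0 rose. Gnpat, which acylates dihydroxyacetone phosphate, was at 66.7 and 66.2 RPKM against 75.4 and 74.9 RPKM, without overlap but short of the threshold (log2 change 0.18, adjusted p = 0.101). Agps, which exchanges the acyl for an alkyl chain, was at 6.08 and 7.20 RPKM against 6.38 and 7.82 RPKM (0.08), and Far1, which supplies the fatty alcohol, at 18.2 and 17.7 RPKM against 18.7 and 18.6 RPKM (0.05, adjusted p = 0.694). The 1 fall was Ldha, lactate dehydrogenase, which belongs to glycolysis, from 231 and 232 RPKM to 182 and 178 RPKM (-0.36). Genes of cholesterol synthesis rose for 1 of 24 and fell for 3, with Sqle at 0.00 and Insig1 at -0.73, and those of fatty acid synthesis rose for 2 of 19 and fell for 1, with Fasn at 0.10 and Acsbg1, an acyl-CoA synthetase gene, rising by 0.72. These shares lay below the background in both directions. Leaving out single libraries gave 0 to 2 rises and 3 or 4 falls for cholesterol synthesis, and 1 rise and 0 or 1 falls for fatty acid synthesis, with the fall absent without any library other than PLA1 replicate 1.

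Lysosomal and autophagy genes fell for 17 of 42 tested members and rose for 0. Map1lc3a, which encodes an LC3 of autophagosomes, went from 167 and 163 RPKM to 73.5 and 79.1 RPKM (log2 change -1.10) and the cathepsin genes Ctsb and Ctsd fell by 0.75 and 0.89. Lamp1 was not called (-0.24), and Tfeb lay below 1 RPKM. Several of these genes, Ctsd among them, are also abundant in microglia, whose markers fell, and the part of microglia was not tested. Of 30 genes of glycolysis and glucose entry 9 fell and 2 rose. Txnip, an inhibitor of glucose uptake, went from 33.9 and 33.0 RPKM to 9.86 and 8.69 RPKM (-1.75) and its relative Arrdc4 fell by 1.06. The hexokinase genes went opposite ways, Hk1 from 13.2 and 13.9 RPKM to 7.29 and 7.21 RPKM (-0.82) and Hk2 from 3.05 and 3.80 RPKM to 6.90 and 7.07 RPKM (0.86). Pkm was flat, at 526 and 537 RPKM against 514 and 518 RPKM (-0.04), and the neuronal enolase gene Eno2 fell by 0.85. Without any library other than PLA1 replicate 2 the number of rises was 1, and the falls numbered 6 to 8 when any 1 library was left out. Of 12 tested hypoxia-inducible genes 1 rose (0 without Ctrl1 replicate 1 or PLA1 replicate 2) and 3 fell, and Vegfa was at 0.228 and 0.277 RPKM against 1.03 and 1.31 RPKM, with a mean below 1 RPKM.

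Chromatin regulators of neurogenesis, BAF subunits among them, moved both ways. In their list 25.9% rose and 18.5% fell, against 16.3% and 13.2% over all tested genes. Actl6b, the neuronal BAF subunit BAF53b, fell from 12.3 and 12.8 RPKM to 6.26 and 6.61 RPKM (log2 change -0.87) and its neuronal partner Ss18l1 from 15.4 and 15.6 RPKM to 10.2 and 8.92 RPKM (-0.65). The progenitor counterpart Ss18 was not called (0.28), and the polycomb genes Suz12 and Eed rose by 1.02 and 0.83. Of 27 tested members 7 rose and 5 fell, with 11 rises without PLA1 replicate 1 and 3 falls without Ctrl1 replicate 1 or PLA1 replicate 2. Among splicing regulators Ptbp1, the repressor of neuronal exons, rose from 76.7 and 77.5 RPKM to 113 and 107 RPKM (0.51), the neuronal Rbfox1 fell from 13.1 and 13.6 RPKM to 7.05 and 8.35 RPKM (-0.73), and Ptbp2 was not called (-0.09). Rises in that list numbered 14 of 42 and falls 6. The rises were 8 without Ctrl1 replicate 1 or PLA1 replicate 2 and 9 without Ctrl1 replicate 2, and the falls 3 without either Ctrl1 library.

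Imprinted genes split by gene: Plagl1, a growth regulator, rose from 20.5 and 22.4 RPKM to 52.3 and 50.5 RPKM (log2 change 1.22), Mest from 24.2 and 25.5 RPKM to 57.5 and 55.6 RPKM (1.15) and Grb10 from 58.7 and 59.6 RPKM to 102 and 101 RPKM (0.77). In the other direction, Nnat, a neuronal gene, fell from 664 and 626 RPKM to 357 and 360 RPKM (-0.84), Ndn by 0.75 and Nap1l5 by 1.27. Of 20 tested members 3 rose and 6 fell, and H19 was not called (0.39). Of 19 long noncoding RNAs 7 rose and 3 fell. Gas5, the host of small nucleolar RNAs, went from 13.5 and 9.92 RPKM to 24.7 and 21.8 RPKM (0.94), Sox2ot, which overlaps Sox2, from 4.45 and 4.34 RPKM to 8.82 and 9.26 RPKM (0.90) and Dlx6os1 from 6.69 and 5.72 RPKM to 3.04 and 2.72 RPKM (-0.89). Strand use in the counting is not given in the sources used here, so reads of Sox2ot and Sox2, or of Dlx6os1 and Dlx6, may not be separable. In the matrix list 9 of 20 rose and 3 fell, but 3 rose without either Ctrl1 library and 4 without PLA1 replicate 2. Lamc1 rose from 1.63 and 2.71 RPKM to 5.86 and 7.29 RPKM (1.27), and Ncan, the neuronal proteoglycan neurocan, fell from 179 and 189 RPKM to 97.1 and 98.03 RPKM (-0.91).

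Markers of microglia, the immune cells of the brain, fell for 16 of 22 tested members and rose for 0, with a median log2 change of -1.01. Csf1r, the receptor for their survival factor, went from 31.1 and 35.3 RPKM to 11.4 and 10.4 RPKM (-1.52, SE 0.11, adjusted p = 0.000216), the complement gene C1qa from 207 and 197 RPKM to 83.8 and 98.3 RPKM (-1.15) and Cx3cr1 from 22.4 and 20.2 RPKM to 10.6 and 7.20 RPKM (-1.19). Csf1, a ligand of that receptor, went the other way, from 3.23 and 3.03 RPKM to 8.02 and 10.3 RPKM (1.29), as did the chemokine genes Ccl2, from 3.18 and 2.34 RPKM to 8.11 and 10.4 RPKM (1.45), and Ccl3 (0.95). In all, 6 of 15 tested inflammation genes rose and 2 fell, with 1 fall without Ctrl1 replicate 2 or PLA1 replicate 2. Tnf was at 0.239 and 0.290 RPKM against 1.74 and 1.70 RPKM, with a mean below 1 RPKM, and Il6 was at or near 0.

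**Figure D4:**
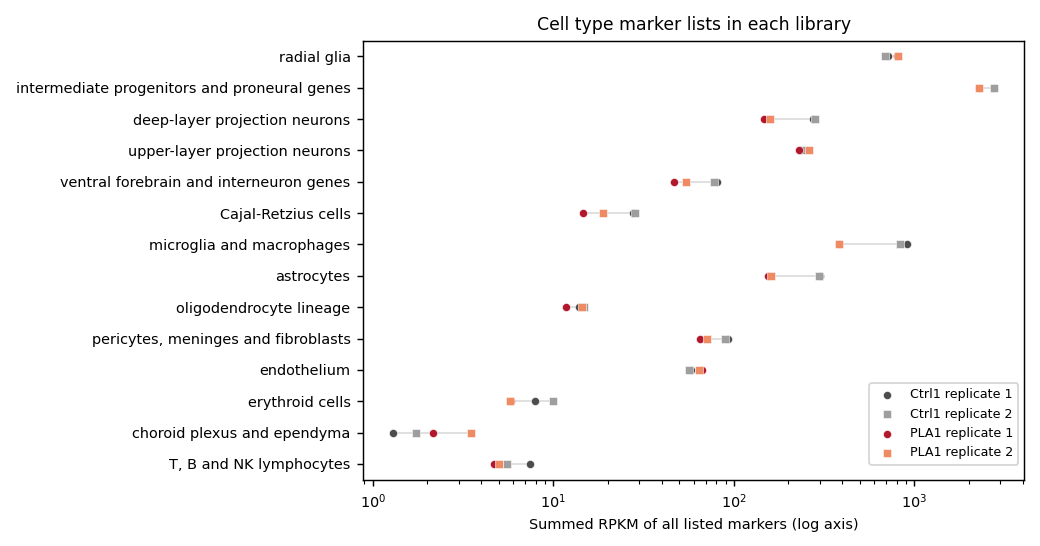
Summed RPKM (log axis) of each cell type marker list in each library, grey for Ctrl1 and red or orange for PLA1, with circles for replicate 1 and squares for replicate 2. The microglia list (912 and 836 RPKM against 383 and 380 RPKM) and the astrocyte list (299 and 296 RPKM against 154 and 161 RPKM) show wide gaps between the groups. Most of the astrocyte gap lies in 1 gene, Apoe, which microglia and radial glia also express.

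Other cell types were present at low levels. The astrocyte list summed to 299 and 296 RPKM against 154 and 161 RPKM, and its largest member, Apoe, which microglia and radial glia also express, went from 205 and 204 RPKM to 70.9 and 76.3 RPKM (log2 change -1.46). Most of the gap in the sum lay in Apoe. Of the 8 tested members of the list 2 rose (25%) and 3 fell (37.5%), against 16.3% and 13.2% of all tested genes. Their median log2 change was -0.01. The defining members Gfap and Aqp4 were at most 0.0563 and 0.141 RPKM, and Aldh1l1 was not called (0.14). The endothelial list summed to 57.6 and 56.2 RPKM against 66.9 and 64.3 RPKM, nearly all of it from Slc2a1 and Mfsd2a, while Cldn5, Pecam1 and Kdr lay below 1 RPKM. The list of pericytes, meninges and fibroblasts summed to 92.3 and 89.9 RPKM against 64.6 and 71.1 RPKM, mostly from Igfbp2 (-0.53), and Pdgfrb, Dcn and Lum lay below 1 RPKM. The erythroid list summed to 7.89 and 9.94 RPKM against 5.82 and 5.75 RPKM, the choroid plexus list to 1.30 and 1.73 RPKM against 2.15 and 3.51 RPKM, and the lymphocyte list to 7.39 and 5.57 RPKM against 4.71 and 5.02 RPKM. Of 4 tested sex-linked genes Xist rose (0.71), and Ddx3y (-1.09), Eif2s3y (-1.28) and Uty (-0.83) fell, Uty with an adjusted p of 0.0654 without Ctrl1 replicate 2 and 0.056 without PLA1 replicate 2. The part of these differences in any other change was not tested.

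The changes ran along the developmental axis of the stage libraries. Of the 1538 genes that fell, 380 (24.7%) were at least 2-fold higher on the log2(RPKM + 1) scale at embryonic days 16 and 18 than at days 11 and 12, against 6.94% of all tested genes. Of the 1900 that rose, 449 (23.6%) were at least 2-fold lower at the late days, against 6.69%. The reverse pairings were rare, with 18 risen genes (0.947%) late-higher and 10 fallen genes (0.65%) late-lower. Among the 196 genes that fell at least 2-fold, 95 (48.5%) were late-higher. The 251 genes that rose at least 2-fold did not show a matching increase: 45 (17.9%) were late-lower, a smaller share than over all rises, and 8 (3.19%) were late-higher. Their median difference between late and early brain was -0.03 on the log2 scale, against -0.49 over all rises. Each stage had 1 library, so these shares carry no replicate error, and developmental age and cell mix cannot be told apart in them.

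**Figure D5:**
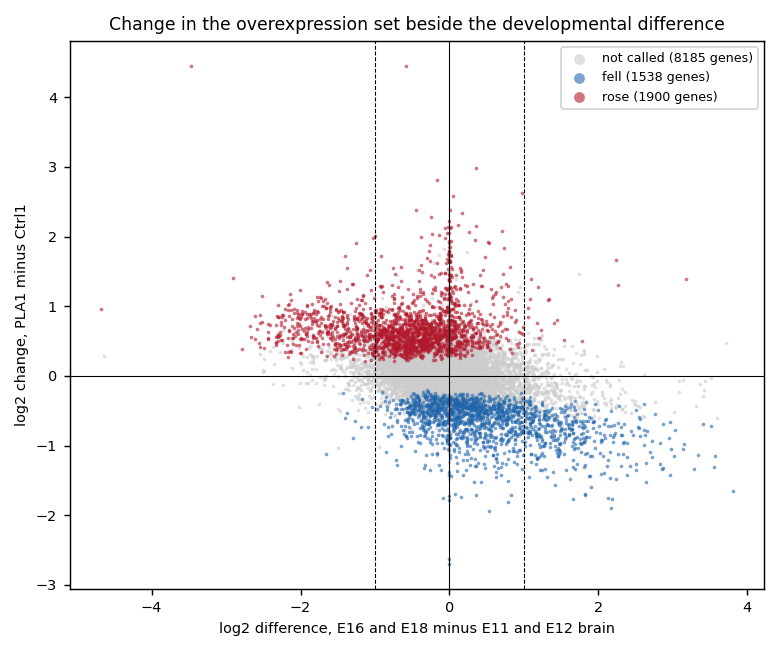
Each point is 1 of the 11623 tested genes, with its log2 difference between late (embryonic days 16 and 18) and early (days 11 and 12) brain on the horizontal axis and its log2 change in PLA1 on the vertical axis; dashed lines mark a 2-fold difference. Blue points, which fell, extend to the right (380 beyond the right dashed line), and red points, which rose, to the left (449 beyond the left one), while the column of red points near 0 includes genes such as Ifi44 (2.58).

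The other overexpression set gave a test of whether changes were shared. There, 98 of 11179 tested genes (0.877%) were called, and 1208 of 10424 genes tested in both sets (11.6%) differed in their change, a count that was 590 without Ctrl1 replicate 1, 719 without Ctrl1 replicate 2, 774 without PLA1 replicate 2, 775 without replicate 2 of the neuron controls and 939 to 1123 without any other library. The difference of Plaat3 was not called at the pseudocount of 1: it went from 0.0699 and 0.230 RPKM to 19.01 and 20.8 RPKM in the neuron set (log2 change 4.19, against 4.46 here; difference 0.27, adjusted p = 0.445, and 0.43, adjusted p = 0.0461, with a pseudocount of 5). Asns did differ, at 78.7 and 87.9 RPKM against 73.0 and 71.9 RPKM in the neuron set (-0.20, difference 1.90, adjusted p = 3.85e-05), and so did Trib3 (difference 2.52), Egr1 (2.84), Mapt (-1.73), Stmn2 (-1.41) and Csf1r (-1.04). Mapt was at 195 and 193 RPKM against 223 and 224 RPKM there. Fgf15, Gli1, Hhip, Ifit1 and Oasl2 had means below 1 RPKM in the neuron set and were not tested for a difference: Ifit1 was at 0.370 and 0.416 RPKM in its controls and 0 in both treated libraries, and Fgf15 at 0 and 0.151 RPKM against 0.249 and 0 RPKM. Each table was compared only within itself, and levels across the 2 tables were not tested.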

How the data were processed

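RNA-seq values of 4 mouse brain libraries, 2 per group, were analysed. The labels' protocol gives Trizol extraction and 2 ug of total RNA. Alignment with STAR 2.7.9a, counting with HTSeq 0.6.0 and the build mm10 are named in the submitters' processing notes. The values were deposited as RPKM by the authors, and the gene lengths behind them are not given in the sources used here. Read counts were recovered from the deposited RPKM, the exon lengths of GENCODE M21 and the library total. They came out whole, within 0.01, for 97.7% to 97.8% of values above 0, and 32009 of 32941 genes had a length.

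Genes averaging 1 RPKM or more over the 4 libraries were tested with limma 3.58.1 in R 4.3.3 on log2(RPKM + 1) with a mean-variance trend, PLA1 minus Ctrl1, two-sided, at a Benjamini-Hochberg adjusted p under 0.05. Fold changes on that scale understate the change of low genes. The filter used the mean over both groups, so a gene below 1 RPKM in 1 group was tested only where the other group was higher. Every adjusted p in the text is from limma. The set difference was fitted as a difference of differences over 8 libraries. The fit was tested on simulated data with 200 changed genes of 11331. It recovered 81.5% of 3-fold changes, with 8.43% of its calls false, above the nominal level. Of 1.5-fold and of 2-fold changes it recovered 0%. This setting differs from the data here, in which 3438 genes were called, so these rates do not carry over to them.

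The members and the gene lists were chosen with earlier results of these data known, so no list gives independent support. Of the names in the 76 lists, 1944 were matched and 51 were not. Named genes were the construct genes, the 15 largest rises and falls that averaged 5 RPKM or more and did not overlap, the key members of each list with up to 6 called members per direction, and 12 genes for the set difference. Other genes, among them those near Fgf15, were named after their values were seen. Some genes that the rule names are not reported here. Promoter sequences are from RefSeq (GRCm38.p6), matched by symbol for 8949 tested genes.

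Alternatives were pseudocounts of 0.1 and 5, no filter and a mean of at least 5 RPKM, median-ratio and upper-quartile scaling, a replicate term, limma without the trend, limma-voom on recovered reads, removal of the exon length trend and leaving out each library.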

Additional observations from a re-analysis of the deposited data

Results flagged for a closer look

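A difference here is the change in the first brain set minus the change in the neuron set. The limma test of the difference itself called 6 of the 7 testable genes compared between the sets. Over all 10424 genes tested in both sets it called 11.6%. The immediate early gene Egr1 differed by 2.84 on the log2 scale (adjusted p = 0.000349), and in the neuron set it was at 8.96 and 7.63 RPKM in the controls and 6.60 and 7.40 RPKM with the construct. The stress response genes Trib3 and Asns differed by 2.52 (adjusted p = 0.00116) and 1.90 (adjusted p = 3.85e-05). Trib3 was low in the neuron set, at 0.800 and 2.14 RPKM against 1.28 and 0.770 RPKM. The neuronal microtubule genes differed in the other direction, Mapt by -1.73 (adjusted p = 3.33e-05) and Stmn2 by -1.41 (adjusted p = 0.000223). Stmn2 was at 175 and 188 RPKM in the neuron controls and 167 and 180 RPKM with the construct, with overlapping groups. The microglia gene Csf1r differed by -1.04 (adjusted p = 0.00349). It stood at 9.51 and 10.5 RPKM in the neuron controls and 6.59 and 7.10 RPKM with the construct, a change that was not called in that set (-0.49, adjusted p = 0.133). Trib3, Egr1, Asns, Mapt, Stmn2 and Csf1r were all chosen with their changes in the first set known. Their count therefore does not measure how often the sets differ.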

How the results depend on the processing

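The number of called genes, 3438 (1900 rose, 1538 fell), lay within 1.5 times of that count under every alternative other than the unfiltered fit and the fits without Ctrl1 replicate 1 or PLA1 replicate 2. With no filter on low values 1177 genes were called (614 rose, 563 fell), in a fit that adjusts over more genes. With 1 library left out the calls numbered 1575 to 3294 (867 to 1870 rises, 708 to 1424 falls), lowest without Ctrl1 replicate 1. Median-ratio scaling gave 1571 rises and 1762 falls (47.1% rises), and upper-quartile scaling 1326 and 1972 (40.2%). The count of genes that differed between the sets, 1208, was 590 to 1123 with 1 library left out. Replicate numbers were not shown to pair the libraries: over the 2 pairs, the deviations of same-numbered libraries correlated at 0.0991, and with the replicate block 4297 genes were called (2428 rose, 1869 fell). Of 218 called genes named in the text, 172 kept the call under every alternative that tested them, and none of the 218 changed sign. The size of the Plaat3 change ranged from 2.699 with a pseudocount of 5 to 6.15 with limma-voom on recovered reads, and its difference between the sets, 0.27, was -0.54 with a pseudocount of 0.1 (adjusted p = 0.457) and 0.43 with one of 5 (adjusted p = 0.0461). In at least 1 alternative 26 named genes without a call changed sign, with no value of the other sign called. The log2 changes of the other sign were, after upper-quartile scaling, Agps at -0.012, Dll1 at -0.0094, Dnajb1 at -0.094, Eif2ak3 at -0.049, Epha4 at -0.064, Far1 at -0.051, Fasn at -0.0083, Ifnar1 at -0.072, Mrpl3 at -0.096, Ndufs1 at -0.014, Pex19 at -0.084, Pex7 at -0.018, Sqle at -0.10 and Tfam at -0.037. After median-ratio scaling they were Dnajb1 at -0.046, Eif2ak3 at -0.018, Epha4 at -0.016, Far1 at -0.0049, Ifnar1 at -0.027, Mrpl3 at -0.050, Pex19 at -0.037 and Sqle at -0.057. With the exon length trend removed they were Agps at -0.0067, B2m at 0.13, Eif2ak3 at -0.024, Epha4 at -0.032, Far1 at -0.022, Fasn at -0.0085, Ifnar1 at -0.014, Mrpl12 at 0.071, Mrpl3 at -0.049, Ndufv1 at 0.0040, Neurog2 at 0.010, Pex7 at -0.073, Sqle at -0.031 and Wars at 0.020, and with limma-voom on recovered reads Sqle at -0.00075. The ranges with 1 library left out were, for the first of these genes by name, Agps -0.046 to 0.21, B2m -0.16 to 0.0039, Cdkn1b -0.10 to 0.034, Dll1 -0.0084 to 0.19, Dnajb1 -0.021 to 0.044, Eif2ak3 -0.17 to 0.21, Eomes -0.15 to 0.43, Epha4 -0.0054 to 0.088, Fasn -0.023 to 0.21, Ifnar1 -0.11 to 0.17, Irf3 -0.00068 to 0.28, LTO1 -0.22 to 0.015. For the others they were Mrpl12 -0.16 to 0.0079, Mrpl3 -0.087 to 0.098, Mrps5 -0.098 to 0.047, Ndufv1 -0.13 to 0.00039, Neurog2 -0.34 to 0.17, Pex11a -0.28 to 0.0093, Pex19 -0.027 to 0.066, Pex7 -0.046 to 0.13, Sqle -0.10 to 0.10, Tfam -0.034 to 0.17, Vim -0.12 to 0.0072, Wars -0.031 to 0.0034. The cause of these sign changes was not tested. Recovered depth was 16147911 to 21041184 reads a library, and genes with few reads, such as Shh and Ifnb1, give no usable change.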

Other observations

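The neighbourhood of Fgf15 was examined after its value had been seen. Within 250 kb, 2 other genes were tested. Ccnd1, 29 kb away, rose by 1.40 (adjusted p = 7.45e-05), and in the neuron set it was not called (-0.28, adjusted p = 0.391). LTO1, 14.1 kb away, was not called (-0.10, adjusted p = 0.639).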
